A study of Mus musculus with 42 samples.

Results

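The genes described here are the glucocorticoid receptor gene Nr3c1 and 9 genes tied to its action in the lung: Hsd11b1, Klf9, Klf15, Fkbp5, Tsc22d3, Errfi1, Zbtb16, Sgk1 and Ddit4. They were chosen by name, with earlier results of these data known. Each is represented by the probe set with the highest mean over all arrays among those annotated to that single gene symbol, and 10 of 10 members were measured among 18194 genes. The arrays came from whole lungs of newborn mice, 1 mouse per array, in 14 groups of 3 pups (42 arrays). Wild-type pups (WT, labelled Nrf+/+) and pups without Nfe2l2 (KO, labelled Nrf-/-), the gene of the antioxidant transcription factor NRF2, were taken in room air on the day of birth (P1) and at P2, P3 and P4. For hyperoxia (O2), other pups of both genotypes were exposed for 1 day and taken at P2, for 2 days (P3) or for 3 days (P4). The chamber held at least 95% oxygen for 23 h a day, was opened each morning, and all pups, including those in air, were kept with foster dams. The labels name no cell-type-specific deletion, and the sources used here state neither the strain nor the sex of the pups nor the hour of killing.

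Glucocorticoids such as corticosterone cross the cell membrane and bind the receptor encoded by Nr3c1, which waits in the cytoplasm in a complex of heat shock proteins. The loaded receptor enters the nucleus and binds paired half-sites in DNA, where it switches on target genes. Hsd11b1 encodes the enzyme that regenerates active hormone from its inert form inside the cell. Klf9, Klf15 and Zbtb16 encode transcription factors induced by the receptor, Fkbp5 a chaperone partner that dampens hormone binding, and Tsc22d3 the anti-inflammatory protein GILZ. Errfi1 encodes an inhibitor of the epidermal growth factor receptor, Sgk1 a kinase that raises sodium uptake through epithelial channels, and Ddit4 (REDD1) an inhibitor of the growth kinase complex mTORC1. Around birth a surge of glucocorticoid prepares the lung for breathing by promoting surfactant, fluid clearance and thinning of the alveolar wall.

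To show what receptor binding letters look like in a member, start-site windows of the genes were read from RefSeq (assembly GRCm38.p6), each running from 250 bases before to 50 bases after an annotated start. Windows of 8 of 10 members were searched (16 windows in all), and none of Nr3c1 or Zbtb16 was. The full receptor element was searched as AGAACA and TGTTCT facing each other with 3 letters between them, which reads the same on both strands, and either half-site alone was searched as well. Also searched, on both strands, were CACGTG, the E-box bound by clock factors, and TGAC followed after 3 letters by GC, the core of the NRF2-bound antioxidant element. The Sgk1 window shown here, on chr10:21993640-21993939 (plus strand), is one of 3 among 32851 windows of this length (0.00913%) that hold the full element. Its capitals mark, from the 5′ end, an E-box that shares letters with a half-site, and then the full element, whose first letter lies at position −189 relative to the start site. The Klf15 window, on chr6:90462326-90462625 (plus strand), is shown because Klf15 fell furthest of the members between P1 and P4 in WT air and holds 3 E-boxes. Its capitals mark those E-boxes, the last of which shares letters with an antioxidant core.
Sgk1: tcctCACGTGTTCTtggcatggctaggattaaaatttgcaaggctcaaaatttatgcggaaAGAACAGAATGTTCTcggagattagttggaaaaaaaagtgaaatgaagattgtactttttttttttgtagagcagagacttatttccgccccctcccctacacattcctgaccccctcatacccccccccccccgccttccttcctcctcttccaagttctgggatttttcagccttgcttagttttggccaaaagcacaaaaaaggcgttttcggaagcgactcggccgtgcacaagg
Klf15: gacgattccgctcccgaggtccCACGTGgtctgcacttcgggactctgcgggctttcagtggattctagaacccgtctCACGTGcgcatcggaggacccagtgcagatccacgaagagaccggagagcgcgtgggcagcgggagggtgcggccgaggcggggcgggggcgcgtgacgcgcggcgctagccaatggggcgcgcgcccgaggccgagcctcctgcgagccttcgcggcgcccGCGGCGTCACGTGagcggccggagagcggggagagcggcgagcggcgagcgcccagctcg
Half-sites occurred in 4 member windows, 1 of Tsc22d3 and 3 of Sgk1, against 19% of all windows. E-boxes occurred in windows of Klf15, Fkbp5 and Sgk1 (7.15% of all windows), and antioxidant cores in windows of Hsd11b1 and Klf15 (12.4%). A match of letters describes the sequence and shows no binding.

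The libraries were checked before the members were compared. Nfe2l2 averaged 10.86 ± 0.28 over the 21 WT arrays and 4.68 ± 0.29 over the 21 KO arrays (SD), with no overlap. Surfactant and other lung markers (8 of 8 measured) lay at the top of the scale, and the 4 adrenal steroid enzyme genes lay between the 16.1 and 41.1 percentile of all genes. Some lungs carried transcripts of neighbouring organs. A score, the mean log2 level of a marker list relative to its median over the arrays, passed 2 for liver in 10 arrays (9 WT, 1 KO), for heart in 3 WT arrays, for skeletal muscle in 5 (2 WT, 3 KO) and for thymocytes in 2 KO arrays. A fat score was 1.68 in WT O2 P4 replicate 1, 1.57 in KO air P3 replicate 2 and 1.55 in KO O2 P4 replicate 1. These were the highest pups of their groups for Zbtb16. WT air P2 replicate 1 (2.06) and KO air P2 replicate 3 (1.97) were the lowest of theirs. Every WT air P1 pup passed 2, replicate 1 in heart (3.28), replicate 2 in liver (5.47) and replicate 3 in muscle (2.59). So did every WT air P2 pup, replicate 1 in heart and muscle (2.35 and 2.69) and replicates 2 and 3 in liver (7.77 and 3.52). The falls after birth in WT rest on these groups, and the part of such transcripts was not tested. KO air P3 replicates 2 and 3 had muscle scores of 6.27 and 2.76, and WT O2 P4 replicates 1 and 3 liver scores of 4.76 and 3.35. Values without such arrays are given beside results of KO air P3 and WT O2 P4. Where that leaves a group with 1 array, the fit takes the spread from the other groups and the lone pup is assumed to vary like them, so a call gained or lost there says little. Array values carry no read depth, and 3 pups a group limit the precision. In homogenates a change in cell makeup and a change of RNA per cell cannot be told apart.

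All values below are log2 levels on the scale of the deposited table. A change is a difference of log2 group means with its standard error (SE), and a gene was called changed where limma's p, adjusted over 18194 genes by Benjamini-Hochberg, was under 0.05. The hormone-regenerating enzyme gene, the receptor gene and Sgk1 varied least between groups. The group means of Nr3c1 spanned 0.57, those of Hsd11b1 0.81 and those of Sgk1 1.07, whereas the means of Errfi1, Klf15 and Klf9 spanned 2.32, 2.31 and 2.13. WT at P1 was the highest of the 14 groups for 6 members (Hsd11b1, Klf9, Klf15, Tsc22d3, Sgk1 and Ddit4), and WT after 3 days of O2 was the highest for Errfi1 and Zbtb16. WT O2 P4 came next below WT P1 for Hsd11b1, Sgk1 and Ddit4 by less than the larger SD of the pair. The lowest group was KO air P4 for Hsd11b1, Klf9, Klf15 and Ddit4. The order was thus not the same for every member, and neighbouring groups in it mostly lay within their spread.

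**Figure D1:**
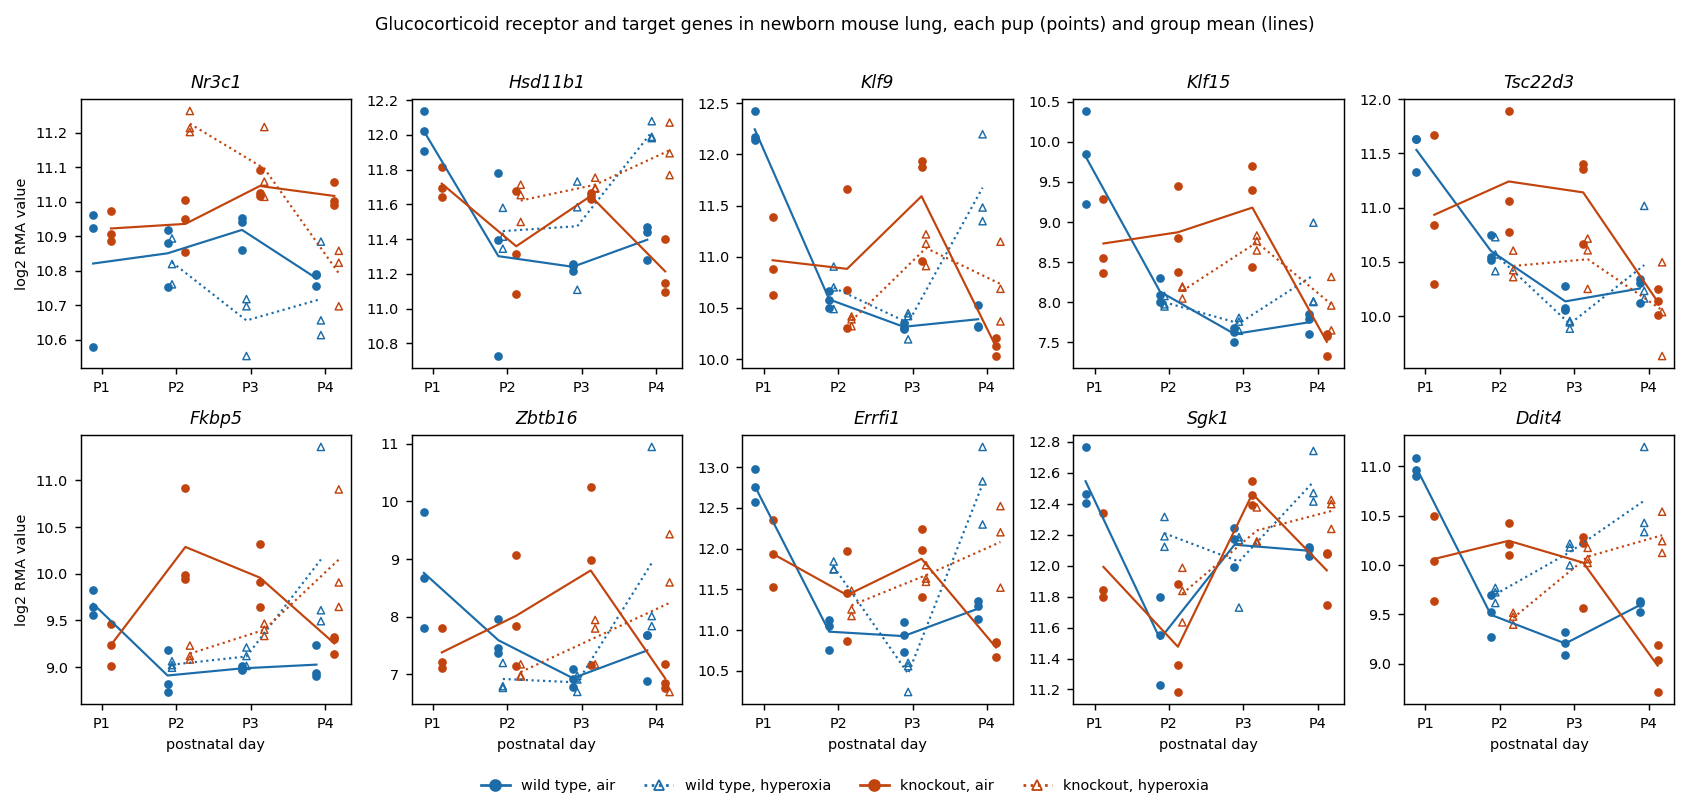
Log2 level of each member (vertical axis) against postnatal day (horizontal axis), 1 point per pup, with lines through group means. Filled circles are air and open triangles hyperoxia, in blue for WT and red for KO. In WT air most targets are highest at P1 and low from P2 on. In KO air the group means of most stay near or above P1 through P3, where replicates 2 and 3 were high in muscle transcripts. At P4 the hyperoxia points of several genes lie above the air points.

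Nr3c1, the receptor itself, hardly moved with age. In WT air the pups read 10.58, 10.96 and 10.92 at P1, 10.88, 10.75 and 10.92 at P2, 10.86, 10.94 and 10.95 at P3, and 10.79, 10.79 and 10.76 at P4. In KO air they read 10.91, 10.89 and 10.97 at P1, 10.85, 11.00 and 10.95 at P2, 11.02, 11.03 and 11.09 at P3, and 11.06, 10.99 and 11.00 at P4. In WT the P1 pups span the values of all later ages, though each P4 pup lay below each P3 pup, and the change from P1 to P4 was −0.04 ± 0.08 in WT and 0.09 ± 0.08 in KO (limma adjusted p = 0.79 and 0.435). KO pups read slightly higher than WT pups after 1 and 2 days of O2, by 0.40 ± 0.08 and 0.44 ± 0.08 (limma adjusted p = 0.00263 and 0.000605), and by 0.31 ± 0.05 over the 3 days. In air the difference over 4 ages was 0.14 ± 0.04 (limma adjusted p = 0.00863). These genotype differences depend on the probe set: another one, with a mean level of 10.73 against 10.90 for the one used, gave 0.04 in O2 and −0.0035 in air, and one with a mean of 9.45 gave −0.24 in O2 and −0.35 in air, the last called (limma adjusted p = 0.000579). Within a genotype O2 moved Nr3c1 little: it rose by 0.29 after 1 day and fell by 0.22 after 3 days in KO, and fell by 0.26 after 2 days in WT (limma adjusted p = 0.0161, 0.0275 and 0.0432). Those small calls are fragile. The first ended without KO air P2 replicate 1 (0.25) or KO O2 P2 replicate 1 (0.27), and the second without KO air P4 replicate 1 (−0.20) or 3 (−0.23) or KO O2 P4 replicate 2 (−0.18). The WT call ended without any 1 of the 6 arrays of WT air P3 and WT O2 P3 (−0.29 to −0.21).

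The first comparison asks how the targets change in WT lung in air after birth. Between P1 and P2 the targets fell. Of the 10 members 7 were lower at P2 and 0 higher, where 8.25% of all genes were called lower, and the median change of the members was −1.09 against −0.03 for all genes. Errfi1 read 12.57, 12.98 and 12.76 at P1 and 10.76, 11.13 and 11.06 at P2, a fall of −1.79 ± 0.24 (limma adjusted p = 6.34e-06). Klf15 read 9.22, 10.38 and 9.85 at P1 and 8.01, 8.30 and 8.09 at P2 (−1.68 ± 0.28, limma adjusted p = 0.000106). Klf9 read 12.17, 12.43 and 12.14, then 10.58, 10.50 and 10.67 (−1.66 ± 0.25, limma adjusted p = 3.04e-05). Every P1 pup lay above every P2 pup for these 3 genes. Ddit4 dropped from 10.97, 11.09 and 10.90 to 9.70, 9.27 and 9.52 (−1.49 ± 0.19, limma adjusted p = 2.35e-06) and Sgk1 from 12.40, 12.77 and 12.46 to 11.23, 11.55 and 11.80 (−1.02 ± 0.16, limma adjusted p = 4.35e-05). The groups of both genes are again apart. Tsc22d3 (−0.93 ± 0.26) and Hsd11b1 (−0.72 ± 0.16) also fell, while Zbtb16 at −1.17 ± 0.66 and Fkbp5 at −0.77 ± 0.30 did not pass (limma adjusted p = 0.262 and 0.0897). Tsc22d3 was not called without WT P1 replicate 2, at −0.88 (limma adjusted p = 0.0539). Hsd11b1 in WT P2 ran from 10.73 to 11.78, and its change shrank to −0.43 (limma adjusted p = 0.0475) without WT P2 replicate 1, an array high in heart and muscle transcripts.

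At the later ages most targets were again below their P1 level in WT air. At P3 and at P4, 7 members were lower than at P1 each time, beside 9.42% and 11.3% of all genes. Klf15 was lower by −2.21 ± 0.28 at P3 and −2.07 ± 0.28 at P4, Klf9 by −1.93 ± 0.25 and −1.86 ± 0.25, and Errfi1 by −1.84 ± 0.24 and −1.50 ± 0.24. Ddit4 (−1.78 and −1.39), Tsc22d3 (−1.40 and −1.28) and Hsd11b1 (−0.78 and −0.63) were lower at both ages too. The seventh call differed between the ages and was weak. Zbtb16 at P3 (−1.83 ± 0.66, limma adjusted p = 0.0462) was no longer called without any 1 of WT P1 replicates 2 and 3 or the 3 WT P3 arrays (−1.91 to −1.30). Sgk1 at P4 (−0.45 ± 0.16, limma adjusted p = 0.0386) was no longer called without any 1 of WT P1 replicates 2 and 3 or the 3 WT P4 arrays (−0.49 to −0.34). Markers of white cells moved over the same days. The neutrophil score (7 of 7 markers measured) ran from 0.15 to 1.14 in WT at P1, from 0.06 to 1.71 at P2, from 0.05 to 0.60 at P3 and from −0.73 to −0.23 at P4, so it overlapped P1 at P2 and P3 and lay below it at P4. The macrophage score (6 of 6) ran from 0.24 to 0.39 at P1, from −0.02 to 0.72 at P2, from −0.39 to −0.07 at P3 and from 0.24 to 0.33 at P4. It thus lay below P1 at P3 and overlapped P1 at P2 and P4. The part of these cells in the falls was not tested. Between P2 and P3 a single member was called, where 3.07% of all genes were: Sgk1 rose by 0.61 ± 0.16 (limma adjusted p = 0.0348), a call that ended without WT P2 replicate 1 (0.46) or 2 (0.62) or any 1 of the WT P3 arrays (0.55 to 0.68). Between P3 and P4 limma called 0 members at an adjusted p under 0.05 and 1 gene in all (0.0055%).

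Other genes that glucocorticoids induce in many tissues were examined in the same way. Of 28 such genes, all measured, 14 were lower and 1 higher at P2 than at P1, with a median change of −0.47, beside 8.25% of all genes lower and 1137 of 18194 higher. At P4, 16 were lower and 1 higher, beside 11.3% lower and 2034 of 18194 higher. Per1, a clock gene that the receptor also switches on, fell by 2.49 ± 0.28 at P2 (limma adjusted p = 5.43e-07) and stayed lower by −1.74 ± 0.28 at P4. Fam107a fell by 1.86 and 2.02 at the same ages, and Cebpd, a transcription factor of lung maturation, by 1.49 at P2. Crispld2, a secreted protein gene of lung mesenchyme, fell by 1.83 at P4. Angptl4, an inhibitor of lipoprotein lipase, went the other way, by 0.50 ± 0.17 at P2 and 0.75 ± 0.17 at P4. That gene is uncertain: the mean of its probe sets gave −0.04 and 0.11, and the P2 call ended without WT P1 replicate 2 (0.42) or 3 (0.26) or WT P2 replicate 2 (0.48) or 3 (0.44), and grew to 0.83 without WT P1 replicate 1.

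**Figure D2:**
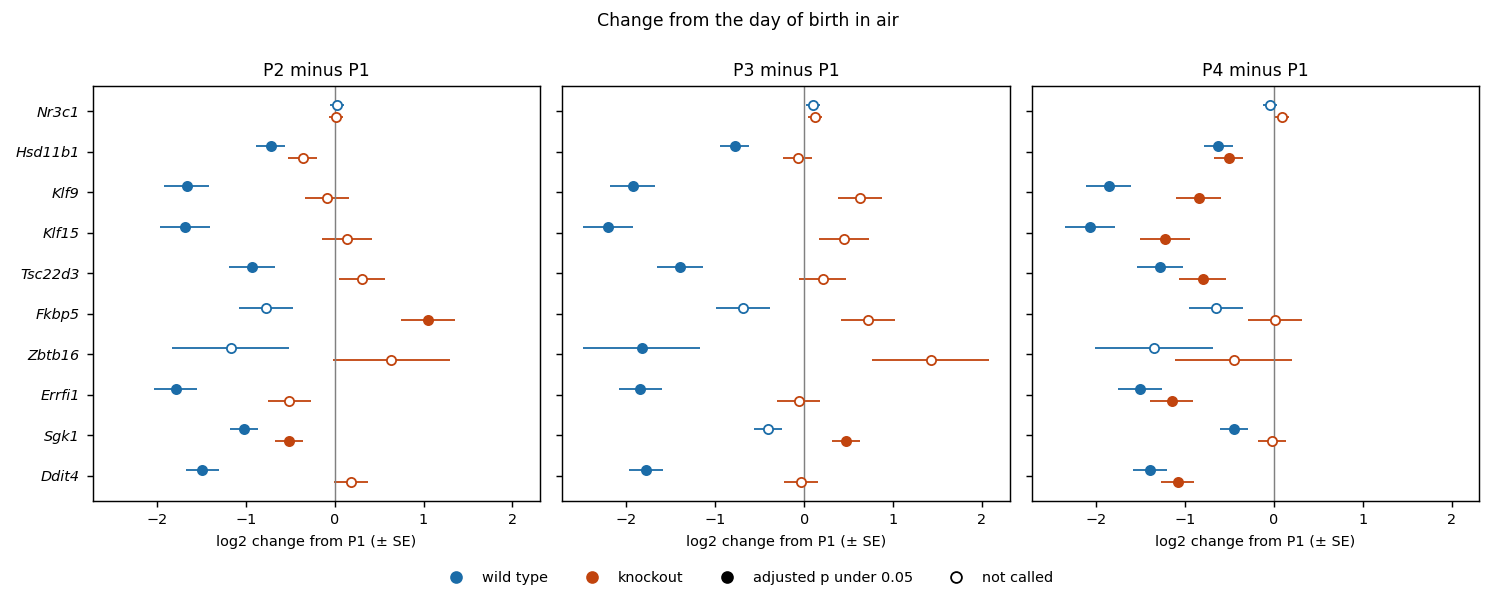
Log2 change from P1 with its SE (horizontal axis) for each member (vertical axis) at P2, P3 and P4 in air, WT in blue and KO in red, filled where limma's adjusted p is under 0.05. The WT points lie to the left at every age for all members but Nr3c1, whereas KO points lie near or right of 0 at P2 and P3 for most members and move left at P4.

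In KO lungs the same days ran differently. From P1 to P2 limma called 2 members, 1 in each direction, beside 13.3% of all genes: Fkbp5 rose by 1.05 ± 0.30 and Sgk1 fell by 0.52 ± 0.16 (limma adjusted p = 0.0195 and 0.0285). The Fkbp5 pups read 9.46, 9.01 and 9.24 at P1 and 10.92, 9.99 and 9.95 at P2. Its groups are apart, but the call ended without KO P1 replicate 2 (0.94) or KO P2 replicate 1 (0.73), an array with a thymocyte score of 3.77. That of Sgk1 ended without KO P1 replicate 1 (−0.34) or KO P2 replicate 1 (−0.37) or 3 (−0.46). At P3, 1 member stood above its P1 level beside 12.8% of genes called either way, Sgk1 at 0.47 ± 0.16 (limma adjusted p = 0.0452). This weak call ended without KO P1 replicate 2 or 3 or any 1 of the KO P3 arrays (0.37 to 0.51). Klf9 at 0.63 and Zbtb16 at 1.42 were not called there, but were without KO P3 replicate 1 (0.94 and 2.24, limma adjusted p = 0.0172 and 0.0314), and Klf9 also without KO P1 replicate 1 (0.84, limma adjusted p = 0.0457). Leaving out KO P3 replicate 1 keeps replicates 2 and 3, both high in muscle transcripts. Replicate 1 itself read 10.96 for Klf9 and 7.16 for Zbtb16, against KO P1 means of 10.97 and 7.38, so these rises rest on the pups high in muscle.

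The later steps in KO air were a rise of 2 members from P2 to P3 and then a fall of 7. From P2 to P3 Sgk1 rose by 0.99 ± 0.16 (limma adjusted p = 4.42e-05) and Klf9 by 0.71 ± 0.25 (limma adjusted p = 0.044), where 8.17% of genes were called higher. The Klf9 step rests on single pups, since KO P2 read 10.30, 11.67 and 10.68 and KO P3 read 10.96, 11.94 and 11.88. It was not called without KO P2 replicate 1 (0.42) or 3 (0.61) or KO P3 replicate 2 (0.54) or 3 (0.57), was 1.10 without KO P2 replicate 2, and was −0.03 without the arrays high in muscle and −0.08 without those high in thymocytes. Errfi1 was at 0.45 and was called without KO P2 replicate 2 (0.71, limma adjusted p = 0.0381). From P3 to P4 Klf15 dropped by 1.67 ± 0.28 (limma adjusted p = 0.000106), Klf9 by 1.47 ± 0.25, Errfi1 by 1.09 ± 0.24, Ddit4 by 1.04 ± 0.19 and Tsc22d3 by 1.01 ± 0.26, beside weaker falls of Sgk1 (−0.49) and Zbtb16 (−1.87). In all 7 were lower, where 7.72% of genes were. Klf15 went from 8.44, 9.70 and 9.40 to 7.33, 7.61 and 7.59, and Klf9 to 10.20, 10.03 and 10.13, so that no P4 pup reached the P3 range. Tsc22d3 was no longer called without KO P3 replicate 3 (−0.87), Sgk1 without KO P3 replicate 2 (−0.50) or 3 (−0.45) or KO P4 replicate 2 (−0.38), and Zbtb16 without KO P3 replicate 2 (−1.15) or 3 (−1.78) or any 1 of the KO P4 arrays (−2.00 to −1.79). With only KO P3 replicate 1 left and the spread taken from other groups, since the other P3 pups were high in muscle transcripts, the changes of Klf15, Klf9, Ddit4 and Errfi1 were −0.93, −0.84, −0.59 and −0.61 and none of the 4 was called.

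Over the whole span from P1 to P4, 6 members were lower in KO, where 13.5% of genes were called lower: Klf15 (−1.22 ± 0.28), Errfi1 (−1.15 ± 0.24), Ddit4 (−1.08 ± 0.19), Klf9 (−0.85 ± 0.25), Tsc22d3 (−0.80 ± 0.26) and Hsd11b1 (−0.50 ± 0.16). Ddit4 read 10.50, 9.64 and 10.05 at P1 and 9.18, 8.71 and 9.04 at P4. Its limma adjusted p was 6.55e-05, and its groups do not overlap. Klf9 lost the call without KO P1 replicate 1 (−0.63), the P1 pup highest in 8 of 10 members. Tsc22d3 lost it without that pup (−0.44) or KO P4 replicate 2 (−0.74) or 3 (−0.81), and Hsd11b1 without KO P1 replicate 3 (−0.46) or KO P4 replicate 2 (−0.47) or 3 (−0.45). The neutrophil score ran from −0.11 to 0.09 in KO at P1, from −0.20 to 0.12 at P3 and from −0.81 to −0.45 at P4, and its part in these falls was not tested. Among the 28 other induced genes 9 were lower and 0 higher, led by Per1 (−1.47 ± 0.28), Mt1 (−1.39 ± 0.26) and Mt2 (−1.34 ± 0.29), the last 2 encoding metallothioneins.

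Whether the courses differ between genotypes was tested as the KO change minus the WT change. Most members were called at P3, at which 9 of 10 members had changed more upward, or less downward, in KO, where 4.68% of genes had. The median of the members was 1.67 against −0.04 for all genes. Klf15 differed by 2.66 ± 0.40 (limma adjusted p = 3.49e-05), the sum of a fall in WT and a change of 0.45 in KO. Klf9 differed by 2.56 ± 0.36 (limma adjusted p = 1.38e-05), Errfi1 by 1.78 ± 0.34 (0.000612), Ddit4 by 1.74 ± 0.27 (4.29e-05), Tsc22d3 by 1.60 ± 0.37 (0.00363) and Sgk1 by 0.88 ± 0.22 (0.00814). Weaker calls were those of Zbtb16 (3.25 ± 0.93, limma adjusted p = 0.0188), Fkbp5 (1.41 ± 0.43, 0.0272) and Hsd11b1 (0.71 ± 0.23, 0.038). Nr3c1 stood at 0.03 ± 0.11. Zbtb16 was not called without WT P1 replicate 3 (2.73) or KO P3 replicate 2 (2.53), and Fkbp5 without WT P1 replicate 2 (1.34), KO P1 replicate 2 (1.30) or KO P3 replicate 2 (1.23). Hsd11b1 kept its call only without WT P1 replicate 3 or KO P1 replicate 3 (0.65 to 0.72 without the others). Without the arrays high in liver transcripts 4 members were called (Klf9, Klf15, Errfi1 and Ddit4), and without those high in muscle transcripts 3 were, namely Klf9 (1.98), Klf15 (1.90) and Ddit4 (1.33).

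**Figure D3:**
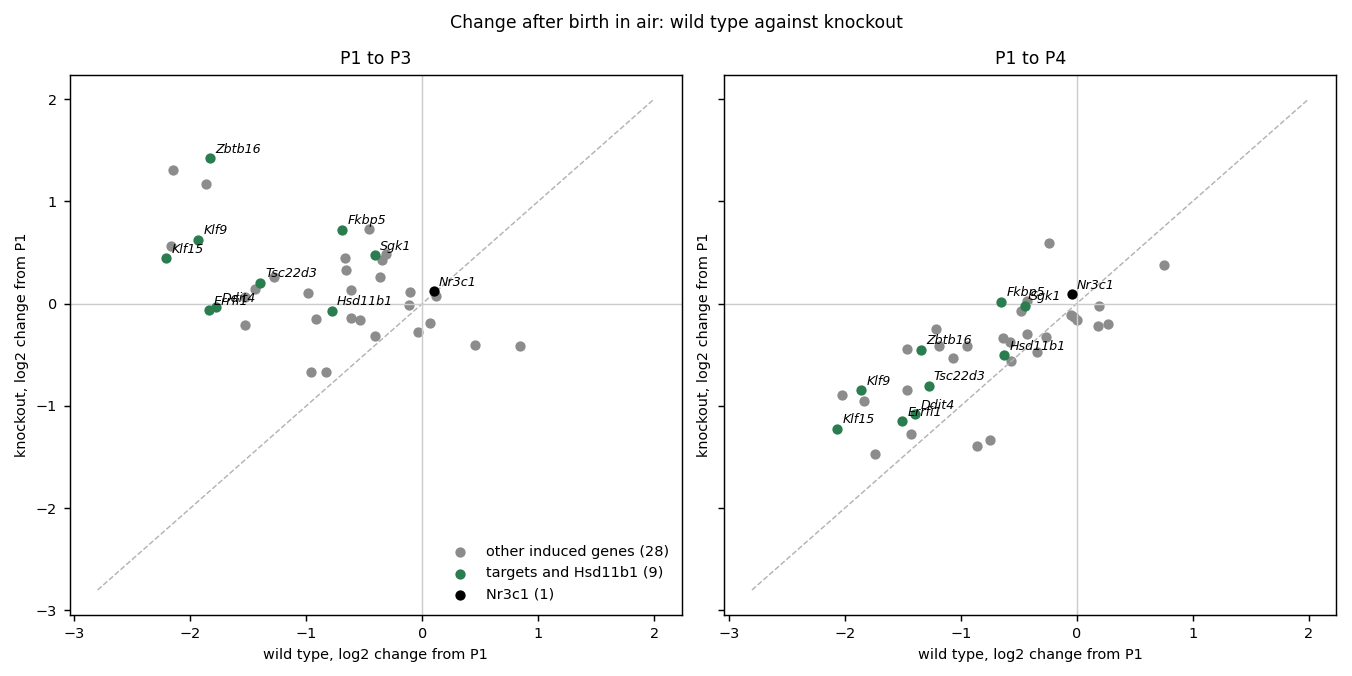
Log2 change from P1 in WT (horizontal axis) against the same change in KO (vertical axis), to P3 on the left and to P4 on the right, in air. Green points are the members other than Nr3c1 (black), grey points the 28 other induced genes, and the dashed line marks equal change. At P3 the members lie far above the line, near 0 or higher in KO, and at P4 they lie closer to it.

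The other ages were tested in the same way, and no test compared one age with another. From P1 to P2 the difference was called for 5 members, where 1.73% of genes were called in this direction: Ddit4 (1.67 ± 0.27, limma adjusted p = 0.000879), Klf15 (1.82 ± 0.40), Fkbp5 (1.82 ± 0.43), Klf9 (1.58 ± 0.36) and Errfi1 (1.28 ± 0.34). Errfi1 was called only without WT P1 replicate 1, WT P2 replicate 2, KO P1 replicate 1 or KO P2 replicate 1 (1.01 to 1.32 without any 1 of the other 8 arrays). Fkbp5 lost the call without WT P1 replicate 2 (1.74), WT P2 replicate 1 (1.73), KO P1 replicate 2 (1.70) or KO P2 replicate 1 (1.50), and Klf9 without KO P1 replicate 2 (1.41). The count was 3 without WT P1 replicate 2 or WT P2 replicate 1, 2 without KO P1 replicate 2 and 0 when limma was fitted to these 12 arrays alone. From P1 to P4 limma called 0 members at an adjusted p under 0.05 and 2 at an unadjusted p under 0.05, beside 0.0275% of genes called. Klf9 stood at 1.01 ± 0.36 and Klf15 at 0.84 ± 0.40 there. Among the 28 other induced genes the difference at P3 was called upward for 13 and downward for 2, beside 4.68% of all genes upward and 1441 of 18194 downward. Pdk4, a brake on pyruvate oxidation, stood at 3.46 ± 0.72, Fam107a at 3.03 ± 0.57 and Per1 at 2.73 ± 0.40, against Angptl4 at −1.26 and Bcl6 at −0.86.

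Compared age by age, KO lungs were below WT at P1 and above it at P3. At P1, 5 members were lower in KO, where 2.51% of genes were. Klf9 read 11.39, 10.62 and 10.88 in KO against 12.17, 12.43 and 12.14 in WT (−1.28 ± 0.25, limma adjusted p = 0.00182), and Ddit4 read 10.50, 9.64 and 10.05 against 10.97, 11.09 and 10.90 (−0.92 ± 0.19, limma adjusted p = 0.00244). No KO pup reached the WT range for either gene. Klf15 (−1.08), Errfi1 (−0.83) and Sgk1 (−0.55) were lower too. Klf15 lost the call without WT P1 replicate 2 (−0.80) or 3 (−1.07) or KO P1 replicate 2 (−0.90). Errfi1 lost it without WT P1 replicate 2 (−0.73) or 3 (−0.84) or KO P1 replicate 2 (−0.63) or 3 (−0.83), and Sgk1 without the same arrays (−0.44, −0.59, −0.46 and −0.48). Tsc22d3 at −0.60 was called without KO P1 replicate 1 (−0.96, limma adjusted p = 0.0327). The neutrophil and macrophage scores of the KO P1 pups (−0.11 to 0.09 and −0.20 to −0.03) also lay below those of the WT P1 pups. For liver, heart and muscle the KO P1 pups scored at most 0.81, −0.0039 and −0.02. WT P1 replicates 1, 2 and 3 reached 3.28 for heart, 5.47 for liver and 2.59 for muscle, in that order. The part of these scores in the P1 difference was not tested.

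At P2, 2 members were higher in KO (7.98% of genes): Fkbp5 by 1.38 ± 0.30 and Ddit4 by 0.75 ± 0.19 (limma adjusted p = 0.00257 and 0.00692). Neither was called without the KO P2 pups high in thymocyte transcripts (1.08 and 0.60), which leaves 1 KO P2 pup, replicate 2, the highest of its group in 8 of 10 members. At P3, 7 members were higher in KO, where 8.99% of genes were, with a median of 0.96 over the members. Klf15 read 8.44, 9.70 and 9.40 in KO and 7.68, 7.51 and 7.63 in WT (1.57 ± 0.28, limma adjusted p = 0.000126). Klf9 read 10.96, 11.94 and 11.88 against 10.29, 10.35 and 10.31 (1.28 ± 0.25, limma adjusted p = 0.00039). Tsc22d3 read 10.66, 11.35 and 11.41 against 10.06, 10.28 and 10.07 (1.00 ± 0.26, limma adjusted p = 0.00543), and Ddit4 read 9.57, 10.28 and 10.22 against 9.32, 9.21 and 9.09 (0.82 ± 0.19, limma adjusted p = 0.00184). Errfi1 (0.95), Fkbp5 (0.97) and Zbtb16 (1.87) were also higher. Fkbp5 lost the call without WT P3 replicate 1 (0.98) or 2 (0.97) or KO P3 replicate 2 (0.79), and Zbtb16 without any 1 of the WT P3 arrays (1.80 to 1.95) or KO P3 replicate 2 (1.15) or 3 (1.78).

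KO P3 replicates 2 and 3 had muscle scores of 6.27 and 2.76 and similar levels of Klf9 (11.94 and 11.88), while replicate 1, with a score of 0.52, was the lowest of the 3 for 9 of 10 members. Among the other arrays high in muscle, WT air P1 replicate 3 (2.59) was the highest of its group in 1 of 10 members and the lowest in 4. WT air P2 replicate 1 (2.69) was the highest in 1 and the lowest in 6, and KO air P2 replicate 3 (3.29) the highest in 1 and the lowest in 2. WT air P2 replicate 1 was also high in heart transcripts (2.35), and KO air P2 replicate 3 in liver and thymocyte transcripts (4.44 and 2.79). The macrophage score also ran lower in KO P3 (−0.76 to −0.53) than in WT P3 (−0.39 to −0.07), while the neutrophil scores overlapped. The lung marker score ran higher, from 0.10 to 0.17 in KO P3 against −0.09 to −0.02 in WT P3. The part of muscle or of these cells in the P3 difference was not tested. With replicate 1 as the only KO P3 pup, and the spread taken from other groups, limma called 0 of 10 members at P3 and the changes kept their sign (Klf15 0.83, Klf9 0.64, Tsc22d3 0.53, Errfi1 0.48). Without the arrays high in liver transcripts 3 members were called. In all 3 KO pups, replicate 1 included, each of 10 members read above all 3 WT pups, as did 17.3% of all genes. At P4 limma called 0 members by genotype at an adjusted p under 0.05 (0.726% of genes), with Ddit4 furthest at −0.61 ± 0.19 (limma adjusted p = 0.135). Averaged over the 4 ages 2 members were higher in KO (14.5% of genes), Nr3c1 as given above and Fkbp5 at 0.53 ± 0.15 (limma adjusted p = 0.00875). Klf9 averaged 0.0064, Ddit4 0.0081, Hsd11b1 −0.0050 and Errfi1 0.02, each with a negative difference at P1 and a positive one at P3. Of the 28 other induced genes 9 were higher and 2 lower in KO at P3, beside 8.99% of all genes higher and 2303 of 18194 lower, with Per1 at 2.31 ± 0.28, Fam107a at 1.92 ± 0.40 and the sodium channel subunit gene Scnn1a at 1.53 ± 0.17 on one side, and Angptl4 (−0.97) and Bcl6 (−0.67) on the other.

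The next comparison asks what hyperoxia does to the same genes. After 3 days of O2 several targets were up in both genotypes. In WT 6 members were higher than in air at P4, where 15% of genes were, and the median of the members was 0.84. Errfi1 read 13.25, 12.30 and 12.83 in O2 against 11.29, 11.14 and 11.36 in air (1.53 ± 0.24, limma adjusted p = 1.1e-05). Klf9 read 12.20, 11.35 and 11.48 against 10.53, 10.33 and 10.31 (1.29 ± 0.25, limma adjusted p = 0.000174), and Ddit4 read 11.20, 10.43 and 10.33 against 9.64, 9.52 and 9.62 (1.06 ± 0.19, limma adjusted p = 4.89e-05). In each of these the O2 pups lay above the air pups. Hsd11b1 rose by 0.62 ± 0.16, from 11.47, 11.28 and 11.44 to 12.08, 11.98 and 11.99. Fkbp5 (1.13 ± 0.30) and Sgk1 (0.44 ± 0.16) were called as well, but for Fkbp5 a single pup set the size: it read 11.36 in replicate 1 and 9.49 and 9.61 in the others, and without WT O2 P4 replicate 1 the change was 0.52 (limma adjusted p = 0.132). Sgk1 lost the call without that pup (0.35) or any 1 of the WT air P4 arrays (0.43 to 0.46). Klf15 (0.59 ± 0.28), Tsc22d3 (0.22 ± 0.26) and Zbtb16 (1.52 ± 0.66) did not pass.

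WT O2 P4 replicate 1 was the highest of the 3 pups of its group in 9 of 10 members, reaching 10.95 for Zbtb16 against 8.01 and 7.84, and it carried a liver score of 4.76. Without the arrays high in liver, which leaves WT O2 P4 replicate 2 alone and takes the spread from other groups, the differences kept their direction for the 6 called members. They were 1.08 for Errfi1, 0.92 for Klf9, 0.85 for Ddit4, 0.61 for Hsd11b1, 0.57 for Fkbp5 and 0.35 for Sgk1, of which Ddit4 was called. Earlier in the exposure few members differed from air in WT. After 1 day Sgk1 rose by 0.68 ± 0.16 (limma adjusted p = 0.01), the single call where 4.33% of genes were called, and it ended without WT air P2 replicate 1 (0.53) or WT O2 P2 replicate 2 (0.63). After 2 days Ddit4 rose by 0.93 ± 0.19 (limma adjusted p = 0.0022) and Nr3c1 fell, 2 members where 5.4% of genes were called. Ddit4 read 9.997, 10.22 and 10.18 in O2 against 9.32, 9.21 and 9.09 in air. Averaged over the 3 days 5 members were higher in WT O2 (14.4% of genes): Ddit4 at 0.73 ± 0.11, Errfi1 at 0.62 ± 0.14, Klf9 at 0.48 ± 0.15, Sgk1 at 0.34 ± 0.09 and Hsd11b1 at 0.33 ± 0.09. Without the arrays high in liver 3 were called, with Klf9 at 0.33 and Errfi1 at 0.60 no longer among them.

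**Figure D4:**
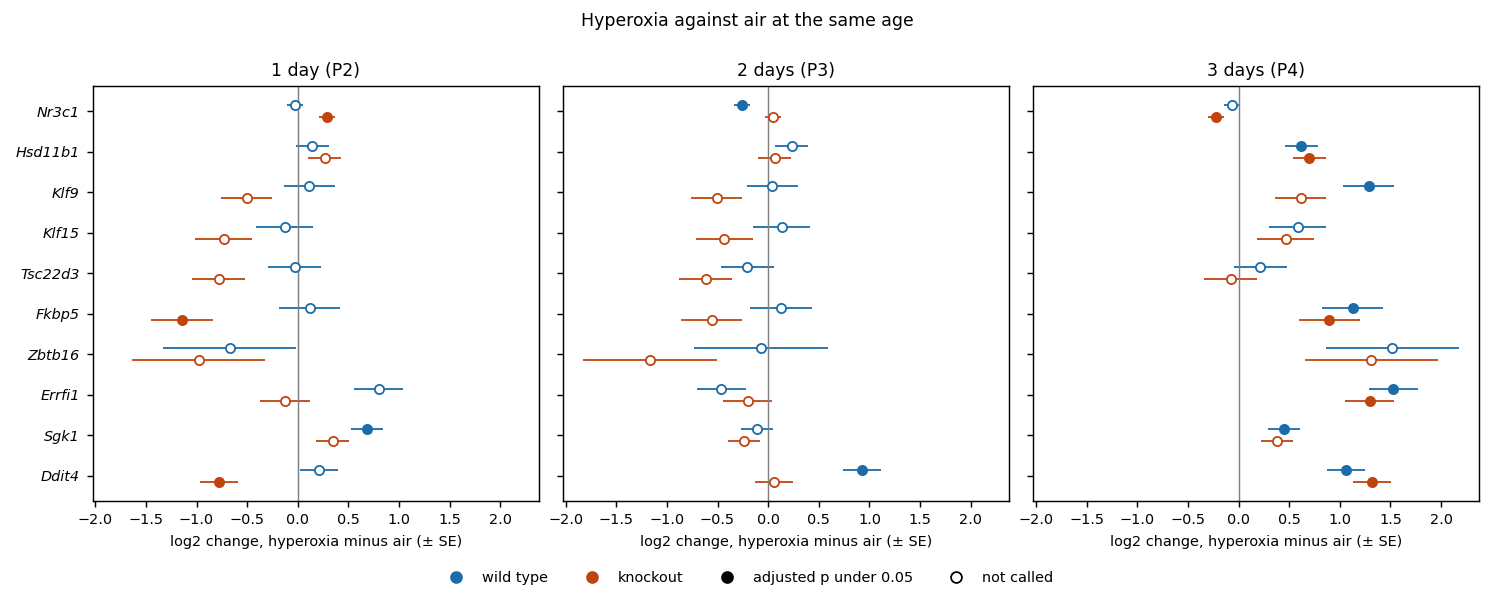
Log2 difference between hyperoxia and air at the same age with its SE (horizontal axis) for each member (vertical axis) after 1, 2 and 3 days, WT in blue and KO in red, filled where limma's adjusted p is under 0.05. After 3 days Errfi1, Ddit4, Fkbp5 and Hsd11b1 lie to the right in both genotypes, and after 1 day the KO points lie left of the WT points for 8 of 10 members.

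In KO lungs 3 days of O2 raised 4 members, where 17% of genes were higher, and lowered Nr3c1. Ddit4 read 10.54, 10.12 and 10.24 in O2 against 9.18, 8.71 and 9.04 in air (1.32 ± 0.19, limma adjusted p = 1.56e-06), and Errfi1 read 12.20, 12.52 and 11.52 against 10.85, 10.67 and 10.85 (1.29 ± 0.24, limma adjusted p = 9.22e-05). The O2 and air pups are apart for both. Hsd11b1 rose by 0.70 ± 0.16 (limma adjusted p = 0.00109) and Fkbp5 by 0.90 ± 0.30 (0.0225). Fkbp5 again rests on 1 pup, replicate 1 at 10.90 against 9.65 and 9.91, without which the change was 0.52 (limma adjusted p = 0.231), and it also lost the call without KO air P4 replicate 2 (0.84). The neutrophil score, too, was higher in KO O2 (−0.14 to 0.55) than in KO air at P4 (−0.81 to −0.45), while in WT the O2 pups (−0.46 to 0.48) overlapped the air pups, and its part was not tested. Zbtb16 at 1.31 was called without KO O2 P4 replicate 2 (2.08, limma adjusted p = 0.0226).

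The first days of O2 gave other calls in KO. After 1 day 3 members were called where 9.06% of genes were. Fkbp5 was lower in O2 by −1.14 ± 0.30 and Ddit4 by −0.78 ± 0.19 (limma adjusted p = 0.0143 and 0.00675), and Nr3c1 was higher. Ddit4 read 9.52, 9.40 and 9.48 in O2 and 10.21, 10.10 and 10.43 in air. The Fkbp5 call ended without KO air P2 replicate 1 (−0.82) or KO O2 P2 replicate 2 (−1.11), and the Ddit4 call without KO air P2 replicate 3 (−0.69). KO air P2 replicates 1 and 3 had thymocyte scores of 3.77 and 2.79, against −0.32 to −0.24 in KO O2 P2. KO air P2 replicate 2 read 9.99 for Fkbp5 and 10.10 for Ddit4, above the KO O2 P2 pups. The part of thymocyte transcripts was not tested. Sgk1 at 0.34 was called without KO air P2 replicate 2 (0.55, limma adjusted p = 0.0157). After 2 days limma called 0 members at an adjusted p under 0.05, where 12.6% of genes were called, and Klf9 at −0.51 was called without KO air P3 replicate 1 (−0.82, limma adjusted p = 0.0339). That setting keeps KO air P3 replicates 2 and 3, both high in muscle transcripts. Replicate 1 read 10.96 for Klf9, against 11.13, 10.91 and 11.22 in KO O2 at P3, so the direction of the Klf9 difference depends on the pups high in muscle. Averaged over the 3 days Hsd11b1 was higher (0.34 ± 0.09) and Tsc22d3 lower (−0.49 ± 0.15) in KO O2, 2 members beside 20.8% of genes, and the Tsc22d3 call ended without KO air P2 replicate 2 (−0.38) or KO O2 P4 replicate 2 (−0.42).

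The O2 response was then compared between the genotypes, as the KO difference minus the WT difference. After 1 day 1 member was called, where 2.69% of genes were: Ddit4 at −0.99 ± 0.27 (limma adjusted p = 0.0372), with WT at 0.21 and KO at −0.78. That call held only without WT air P2 replicate 1 or KO air P2 replicate 2, and ended without any 1 of the other 10 arrays (−1.03 to −0.88). It also uses KO air P2 replicates 1 and 3, high in thymocyte transcripts, whose part was not tested. After 2 days, after 3 days and over the mean limma called 0 members at an adjusted p under 0.05, where 1.76%, 0.561% and 1.19% of genes were called. For the mean 5 members had an unadjusted p under 0.05. After 3 days the differences of Errfi1, Ddit4, Hsd11b1 and Fkbp5 were −0.23 ± 0.34, 0.26 ± 0.27, 0.08 ± 0.23 and −0.23 ± 0.43, all within 1 SE of 0. Within O2, KO against WT pups gave Nr3c1 as the single call after 1 day (2.96% of genes) and over the mean (12.5%). After 2 days 3 members were higher in KO (3.1% of genes): Nr3c1, Errfi1 at 1.21 ± 0.24 (limma adjusted p = 0.0024) and Klf15 at 1.01 ± 0.28 (0.0299), the last not called without any 1 of the 6 arrays (0.96 to 1.06). Errfi1 read 11.63, 11.59 and 11.80 in KO and 10.24, 10.60 and 10.56 in WT. After 3 days Klf9 was lower in KO by −0.94 ± 0.25 (limma adjusted p = 0.0152), 1 member where 9.82% of genes were called, and not so without WT O2 P4 replicate 1 (−0.68) or KO O2 P4 replicate 2 (−0.92) or 3 (−0.76).

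Of the 28 other induced genes 16 were higher and 2 lower after 3 days of O2 in WT, and 14 were higher and 4 lower in KO. Among all genes 15% were higher and 2278 of 18194 lower in WT, and 17% were higher and 2671 lower in KO. Cebpd rose by 2.70 ± 0.24 in WT and 2.17 ± 0.24 in KO, and metallothionein 2 (Mt2) by 2.11 and 2.15. Zfp36, whose protein destabilises inflammatory messages, rose by 2.50 in WT and 1.27 in KO, a genotype difference of −1.22 ± 0.28 (limma adjusted p = 0.0332). That call held only without WT O2 P4 replicate 2, KO air P4 replicate 2 or KO O2 P4 replicate 2 or 3, and ended without any 1 of the other 8 arrays (−1.25 to −0.97). Lipocalin 2 (Lcn2) rose by 1.35 in WT and 2.33 in KO, a difference of 0.98 ± 0.30 that was not called (limma adjusted p = 0.107) except without KO O2 P4 replicate 3 (1.13, limma adjusted p = 0.0487). Both genes are given in both genotypes, and their differences tested, after their values were seen. The cell cycle inhibitor gene Cdkn1c fell by 1.12 and 1.22, Txnip by 0.33 and 0.51, and the sulfotransferase Sult1a1 by 0.96 in KO. The Txnip call in WT ended without any 1 of the WT air P4 arrays (−0.36 to −0.30) or WT O2 P4 replicate 2 or 3 (−0.24 each), and it was −0.53 without WT O2 P4 replicate 1. That of Sult1a1 ended without KO O2 P4 replicate 2 (−0.73). Several of these genes, such as Lcn2, Zfp36 and the metallothioneins, are also known targets of inflammatory or metal signals. Per1 was higher in WT O2 after 1 and 3 days (1.40 ± 0.28 and 1.38 ± 0.28). In KO it was lower after 1 day (−0.94 ± 0.28, limma adjusted p = 0.0326) and was not called after 3 days (0.45 ± 0.28). The KO call after 1 day ended without KO air P2 replicate 2 (−0.72) or 3 (−0.92) or KO O2 P2 replicate 1 (−0.94) or 2 (−0.86). After 2 days Per1 averaged 7.64 in WT O2 and 8.15 in WT air, and 10.18 in KO O2 and 10.45 in KO air. Within O2 at that age KO pups read higher than WT pups by 2.54 ± 0.28 (limma adjusted p = 4.68e-07). The genotype difference in the Per1 response was −2.35 ± 0.40 after 1 day (limma adjusted p = 0.00383), −0.93 ± 0.40 after 3 days (0.265) and −1.02 ± 0.23 over the mean (0.0189). Without the arrays high in liver, the differences after 1 day and over the mean were −2.08 and −0.83 and were not called.

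Genes that supply the hormone or serve the receptor were listed as well. Of 18 listed, 14 were measured. At P2 in WT air 3 were lower and 1 higher, with a median change of −0.04, beside 8.25% of all genes lower and 1137 of 18194 higher. At P4, 3 were lower and 3 higher, beside 11.3% lower and 2034 of 18194 higher. H6pd, which makes the cofactor that Hsd11b1 needs, fell by 0.60 ± 0.12 at P2 and was lower by −0.50 ± 0.12 at P4, in the same direction as Hsd11b1. Hsd11b2, the enzyme that inactivates the hormone, rose by 0.82 ± 0.16 from P1 to P4 in WT (limma adjusted p = 0.000265) and stood at 0.40 ± 0.16 in KO (0.0759). After 3 days of O2 Hsd11b2 was lower by −0.84 ± 0.16 in WT and −0.80 ± 0.16 in KO, opposite to Hsd11b1. H6pd rose by 0.40 ± 0.12 after 3 days of O2 in WT, a call that ended without WT O2 P4 replicate 1 (0.30). The steroid exporter gene Abcb1b averaged 4.40 in WT and 4.28 in KO air at P4, below the 10th percentile of the arrays (a median of 4.57), and 5.84 and 6.12 after 3 days of O2. It was called higher in both genotypes, but a start so near the bottom of the scale gives no exact size. Its relative Abcb1a was lower by −0.72 at P2, a call that ended without WT air P2 replicate 1 (−0.54), and by −0.69 at P4 in WT air. The mineralocorticoid receptor gene Nr3c2 stood at −0.05 ± 0.11 for P4 against P1 in WT and −0.05 ± 0.11 for 3 days of O2 in WT, and neither was called.

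In some groups 1 pup was the highest or the lowest for most members. KO air P1 replicate 2 was the lowest of its 3 in 10 of 10 members, KO air P2 replicate 2 the highest in 8, WT air P1 replicate 2 the highest in 8 and WT O2 P3 replicate 1 the lowest in 8. Other pups were split, such as WT air P3 replicate 1, the highest in 4 and the lowest in 5. The spread inside groups was widest for Zbtb16, with a pooled SD of 0.85, and narrowest for Nr3c1, with 0.09. As a description over the 14 group means among 10915 genes, the gene most like Klf15 was Tsc22d3, another member (r = 0.921). The most like Klf9 was Lpin2 (r = 0.952), Errfi1 had Tpcn2 (r = 0.957), and Hsd11b1 had Arg2 (r = 0.941), followed by Tinagl1 and Timp3. Nr3c1 was most like Xiap (r = 0.933), and Sgk1, with r = 0.899 to Ackr3, had the weakest match. The 14 means share their arrays' normalisation, and such likeness is a description of these groups.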

How the data were processed

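Lung RNA of 42 newborn mice was measured on Affymetrix arrays, 1 mouse per array, 3 per group. The deposited table holds log2 values made by the authors with RMA, per the submitters' processing notes, which also name GCOS (the sources used here give no versions). RMA includes quantile normalisation, so a shift shared by all genes of an array would be removed. Of 45101 probe sets, 34958 had 1 gene symbol, 932 several and 9211 none. The probe set of highest mean stood for each of 18194 genes. Limma 3.58.1 in R 4.3.3 fitted 14 group means to all 42 arrays, with no covariate, with a call at a Benjamini-Hochberg adjusted p under 0.05 among 18194 genes. The fit was tried on simulated data with independent noise between genes and arrays. Only P4 against P1 in WT, the genotype difference from P1 to P3 and 3 days of O2 in WT were tried. Transcripts of other organs and outlying pups were not simulated. Groups came from the titles of the samples. Alternatives changed the normalisation, probe-set choice, array weights, tissue scores as covariates, arrays included and each left-out array, and the closing section gives their effect. The members and the lists of other genes were chosen with earlier results of these data known. From each list the 3 called genes with the largest change in each direction were named in the main comparisons, and Per1, Nr3c2, Hsd11b2 and H6pd whatever their values. Figures were drawn with matplotlib 3.10.9. A mouse is the replicate. Each p-value sets a change against a spread between pups estimated over all 14 groups and drawn towards that of other genes. The sample titles name no litter, and the pups of a group were treated as independent.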

Additional observations from a re-analysis of the deposited data

Results flagged for a closer look

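For these results the change with age or with O2 differed between the genotypes in a test of the difference itself (KO change minus WT change, limma adjusted p under 0.05). From P1 to P3 in air the difference was 3.25 ± 0.93 for Zbtb16, 2.66 ± 0.40 for Klf15, 2.56 ± 0.36 for Klf9, 1.78 ± 0.34 for Errfi1, 1.74 ± 0.27 for Ddit4, 1.60 ± 0.37 for Tsc22d3, 1.41 ± 0.43 for Fkbp5, 0.88 ± 0.22 for Sgk1 and 0.71 ± 0.23 for Hsd11b1 (log2, SE). From P1 to P2 it was 1.82 ± 0.40 for Klf15, 1.82 ± 0.43 for Fkbp5, 1.67 ± 0.27 for Ddit4, 1.58 ± 0.36 for Klf9 and 1.28 ± 0.34 for Errfi1. The comparisons at P2 and P3 share the P1 arrays, so they are not separate evidence. For 1 day of O2 the difference was −0.99 ± 0.27 for Ddit4.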

How the results depend on the processing

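Counts of called members are given here. Without the arrays high in liver transcripts the count fell from 9 to 4 for the genotype difference from P1 to P3, from 5 to 2 for that from P1 to P2, from 7 to 3 for KO against WT at P3, from 6 to 1 for 3 days of O2 in WT and from 5 to 3 for O2 over all days in WT. Without those high in muscle it fell to 3, 2 and 0 for the first 3 of these and from 2 to 1 for KO against WT over the ages in air. Without those high in heart it was 3, and in a fit on the contrast's arrays alone 0, for the difference from P1 to P2. Tissue scores as covariates gave 1 for KO against WT in air, 1 for O2 over all days in KO and 1 for the genotype difference in the O2 effect over all days, which was 0 in the fit reported. That last count was 1 with cyclic loess, 2 with array weights and 1 without arrays high in thymocyte transcripts. Array weights gave 1 for the difference from P1 to P4, and the mean of all probe sets gave 1 for KO against WT in air. Leaving out 1 array at a time gave 6 to 7 for P2 and 6 to 7 for P4 against P1 in WT, 4 to 6 for P4 in KO, 6 to 9 and 2 to 6 for the differences to P3 and P2, 5 to 7 for KO against WT at P3, 4 to 7 and 4 to 6 for 3 days of O2 in WT and KO, 5 to 7 and 1 to 3 over all days of O2 in WT and KO, and 0 to 2 for the genotype difference in the O2 effect (1 without KO air P2 replicate 2, 2 without KO air P3 replicate 1). Without KO O2 P4 replicate 2 the KO count over all days was 1.

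Replicate numbers showed no pairing of pups on average: deviations of same-numbered pups correlated at a mean of 0.006, against −0.001 for other numbers. Of the 273 same-numbered pairs 77 passed 0.1. Other-numbered pairs were not counted this way, so pairing within some of the groups was not tested. With the replicate number as a block, Klf9 from P2 to P3 in KO (0.71, limma adjusted p = 0.0524), Zbtb16 from P3 to P4 in KO (−1.87, 0.0564) and Zbtb16 from P1 to P3 in WT (−1.83, 0.0536) were no longer called, and Fkbp5 and Nr3c1 were called for O2 over all days in WT.

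Signs turned in these cases, among results called in the fit reported or in the alternative. Turns of sign where neither called the gene are not listed here. The Klf9 change from P2 to P3 in KO was −0.29 with tissue covariates, −0.026 without arrays high in muscle and −0.075 without those high in thymocyte transcripts, and the Angptl4 change at P2 in WT was −0.039 by the mean of its probe sets. Of the Nr3c1 probe sets not used, that with a mean of 8.57 gave 0.86 for the difference from P1 to P2. That with a mean of 5.70 gave 0.021 for 2 days of O2 in WT, −0.086 and 0.058 for 1 and 3 days in KO, and −0.021 for KO against WT after 1 day of O2. That with a mean of 9.45 gave −0.57, −0.45 and −0.35 for KO against WT in air at P2, P3 and over the ages, and −0.14, −0.20 and −0.24 in O2 after 1 day, 2 days and over all days. That with a mean of 10.73 gave −0.0035 in air over the ages. A dim Tsc22d3 probe set (mean 5.47) gave 0.052 and 0.17 for P3 and P4 against P1 in WT, −0.38 for 3 days of O2 in WT, −0.20 for the difference to P3 and 0.51 for KO against WT after 3 days of O2. The dim Fkbp5 probe set (mean 3.76) gave −0.048 and −0.049 for 3 days of O2 in WT and KO, −0.0049 for P2 against P1 in KO, and −0.066 and −0.11 for the differences to P2 and P3. The dim Klf9 probe set (mean 4.53) gave −0.13 for 3 days of O2 in WT, and 0.068 and 0.23 for KO against WT at P1 and after 3 days of O2. The cause of these changes was not tested.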
